A study of Mus musculus with 9 samples.

Results

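The 41 genes described here encode complement and coagulation proteins that the liver makes, 21 of complement and 20 of coagulation, its inhibitors and fibrinolysis. They were taken by gene symbol from a list, through the Ensembl identifier, among the 54007 genes and gene models of a liver RNA-seq table, and every one matched 1 identifier. The rule itself uses no measured value. All 41 passed the filter on low values (at least 1 FPKM, fragments scaled to exon length and library size, in at least 3 libraries), as did 10988 genes in all. The table holds 9 libraries of liver RNA from C57BL/6 mice at postnatal day 98, 3 in each of 3 groups. In the HFD+Pc group (replicates 1, 3 and 4) mice on a high-fat diet also received the bacterium Papillibacter cinnamivorans by gavage. The HFD group (replicates 1, 2 and 3) had the high-fat diet without it, and the control group (replicates 1, 2 and 4) is labelled control with no diet named. Mice were 6 weeks old at the start, 15 to a group. Nothing in the labels tells how many mice went into a library, or whether the HFD and control groups were gavaged with a vehicle, so p-values measure only the spread between these libraries, which may be technical.

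Complement is a set of plasma proteins, mostly made by hepatocytes, that cut one another in order. The classical, lectin and alternative routes meet at C3, and the terminal proteins then assemble into a pore in a target membrane. Coagulation is a second such cascade, in which proteases made in the liver lead to thrombin, the enzyme that turns fibrinogen into fibrin, while antithrombin, the protein C system and plasmin limit the clot. Several genes of both cascades are acute-phase genes, whose liver transcripts respond to inflammatory cytokines.

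The recovered reads per library numbered 16279985 to 18641454, and 3 reads in a gene of 1 kb correspond to 0.160 to 0.179 FPKM, which covers counting error only. HFD replicate 3 lay apart from HFD replicates 1 and 2 on the second principal component (-3.94, against -17.6 and -18.9). The liver label was checked against 12 hepatocyte markers, which were all tested and summed to 52370 to 66180 FPKM in HFD+Pc livers, 45180 to 50080 FPKM in HFD livers and 63940 to 64130 FPKM in control livers. This sum did not overlap between HFD and control livers, nor between HFD and HFD+Pc livers, and HFD livers had the lowest sums. Most of it was Alb, which averaged 26448 ± 601 FPKM in HFD livers and 38648 ± 623 FPKM in control livers (SD, n = 3). Of the 12 markers, 10 had a difference of log2(FPKM + 1) below 0 in HFD against control livers (beside 50.1% of tested genes). Cyp2e1 and Serpina1a lay above 0. In HFD+Pc against HFD livers 2 of the 12 lay below 0 (beside 47.8%), with a median difference of 0.25. The part of the marker sum in the results below was not tested. In bulk tissue, fewer cells of a type and less RNA per cell cannot be told apart.

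The 41 transcripts stood high in the liver. Their mean FPKM, a level per length that can be compared between genes, had a median of 153 and exceeded 1000 for C3, Fga and Fgg. It lay between 100 and 1000 for 24 members, between 10 and 100 for 12, and below 10 for C2 and Cfb. Together the members held 2.71%, 3.22% and 2.86% of all FPKM in the HFD+Pc libraries, 2.72%, 3.33% and 2.80% in the HFD libraries and 3.39%, 2.81% and 3.02% in the control libraries, so the groups overlapped.

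Within each group 1 library carried most of the highest values. HFD replicate 2 was the highest HFD library for 37 of the 41 members (90.2%), against 31.1% of all tested genes, and control replicate 1 was the highest control library for 33 (80.5%), against 33.9%. HFD+Pc replicate 3 led its group for 28 members (68.3%), against 34.2%. HFD replicate 1 was the lowest of all 9 libraries for 14 members and led its group for 0. Within a group the members thus tended to rank the libraries alike, as the heatmap of all libraries shows, and members are not independent observations. The median coefficient of variation over members was 9.94% in HFD+Pc livers (2.87% for C2 to 21.6% for C3), 14.2% in HFD livers (4.48% for Serpinc1 to 45.1% for Cfb) and 9.83% in control livers (2.45% for Masp1 to 34.8% for C8a).

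**Figure D1:**
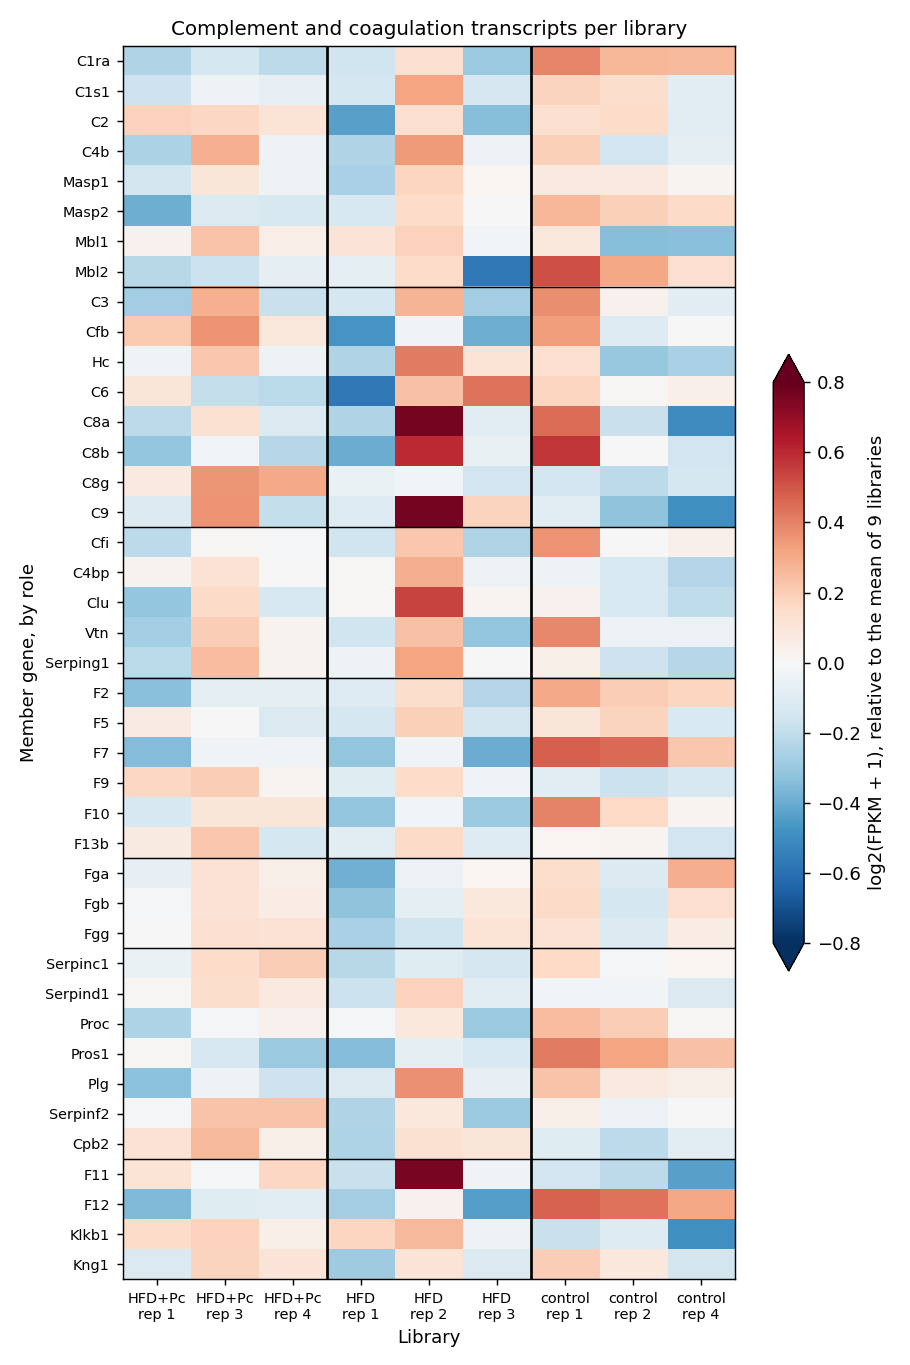
log2(FPKM + 1) of each of the 41 members (rows, ordered by role) in each of the 9 libraries (columns), relative to the member's mean over the 9 libraries; red is above and blue below that mean, on a scale that runs from -0.8 to 0.8. The columns of HFD replicate 2 and control replicate 1 are red for most members, and that of HFD replicate 1 is mostly blue.

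The first comparison, HFD against control, asks how liver transcripts differed on the diet. The transcripts of coagulation factors VII and XII (F7, F12), of protein S (Pros1) and of the C1r protease (C1ra) were lower in HFD livers, and no member was higher by the same test. F7 was at 0.65 and F12 at 0.65 of the control level on the log2(FPKM + 1) scale, Pros1 at 0.71 and C1ra at 0.75. These 4 of 41 members (9.76%) compare with 9.97% of all 10988 tested genes called in either direction, 5.35% lower and 4.61% higher, in limma with Benjamini-Hochberg adjustment over all tested genes at 0.05. The share is near the background and is no result about the members as a list. Of the members, 26 had a difference below 0 (63.4%, against 50.1% of tested genes), with a median difference of -0.09 on the log2 scale beside -0.0009 over all tested genes. At an unadjusted p under 0.05 there were 10 members (24.4%, against 27.8%). The libraries of HFD and control livers did not overlap for 9 members (against 32.9% of tested genes), 8 with HFD lower (19.5%, against 16.4%) and 1, Klkb1, with HFD higher (2.44%, against 16.5%). The count of 4 fell to 0 without HFD replicate 1, control replicate 1 or control replicate 2, and to 1 (Pros1) without HFD replicate 3, the library that stood apart. With every gene above 0 in the test and no filter on low values it was also 0.

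HFD+Pc livers were set against HFD livers to ask what followed the bacterium on the same diet. None of the 41 members passed, beside 0.628% of tested genes called in either direction, 0.182% higher and 0.446% lower, in limma with adjustment over all tested genes. At an unadjusted p under 0.05 there were 5 (C8g, Cfb, C2, Serpinf2 and Serpinc1), or 12.2% against 15.6% of tested genes. All 5 were higher in HFD+Pc livers, but the share of tested genes higher at that threshold was not counted. limma-voom on recovered reads also passed 0, with 6 at an unadjusted p under 0.05. The libraries did not overlap for 3 members (7.32%, against 19.8%), all with HFD+Pc higher (Cfb, C8g and Serpinc1, against 10.2% of tested genes), and for 0 with HFD+Pc lower (against 9.56%). Of these, Cfb reached 1 FPKM in the 3 HFD+Pc libraries and control replicate 1 alone, so it passed the filter through the group where it was high. Neither this count of 3 nor that of 5 above is support for a direction. A difference below 0 was found for 19 members (46.3%, against 47.8%). The median difference over members was 0.01, beside 0.0094 over all tested genes.

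HFD+Pc livers were then set against control livers, with which the HFD comparison above shares its control libraries. The transcript of the C8 gamma chain (C8g) and that of plasma kallikrein (Klkb1) were higher, and C1ra, Masp2, F2, F7, Pros1 and F12 were lower. These 2 of 41 (4.88%) and 6 of 41 (14.6%) stand beside 11.1% of tested genes called higher and 11.9% called lower, 23.1% in either direction. The libraries did not overlap for 15 members (36.6%, against 42.8%), 7 with HFD+Pc higher (17.1%, against 22.1%) and 8 with HFD+Pc lower (19.5%, against 20.8%). A difference below 0 was found for 19 members (46.3%, against 48.7%), and the median difference was 0.0025, beside 0.0083 over all tested genes. Without control replicate 1 the lower calls numbered 2 and without control replicate 2 they numbered 3, while the higher calls numbered 0 without HFD+Pc replicate 3 or 4 and 1 without HFD+Pc replicate 1, HFD replicate 1 or control replicate 2 or 4. No member differed by as much as 1 on the log2(FPKM + 1) scale in any comparison, a scale that understates differences of the low member Cfb, and 33 of the 41 passed in none.

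**Figure D2:**
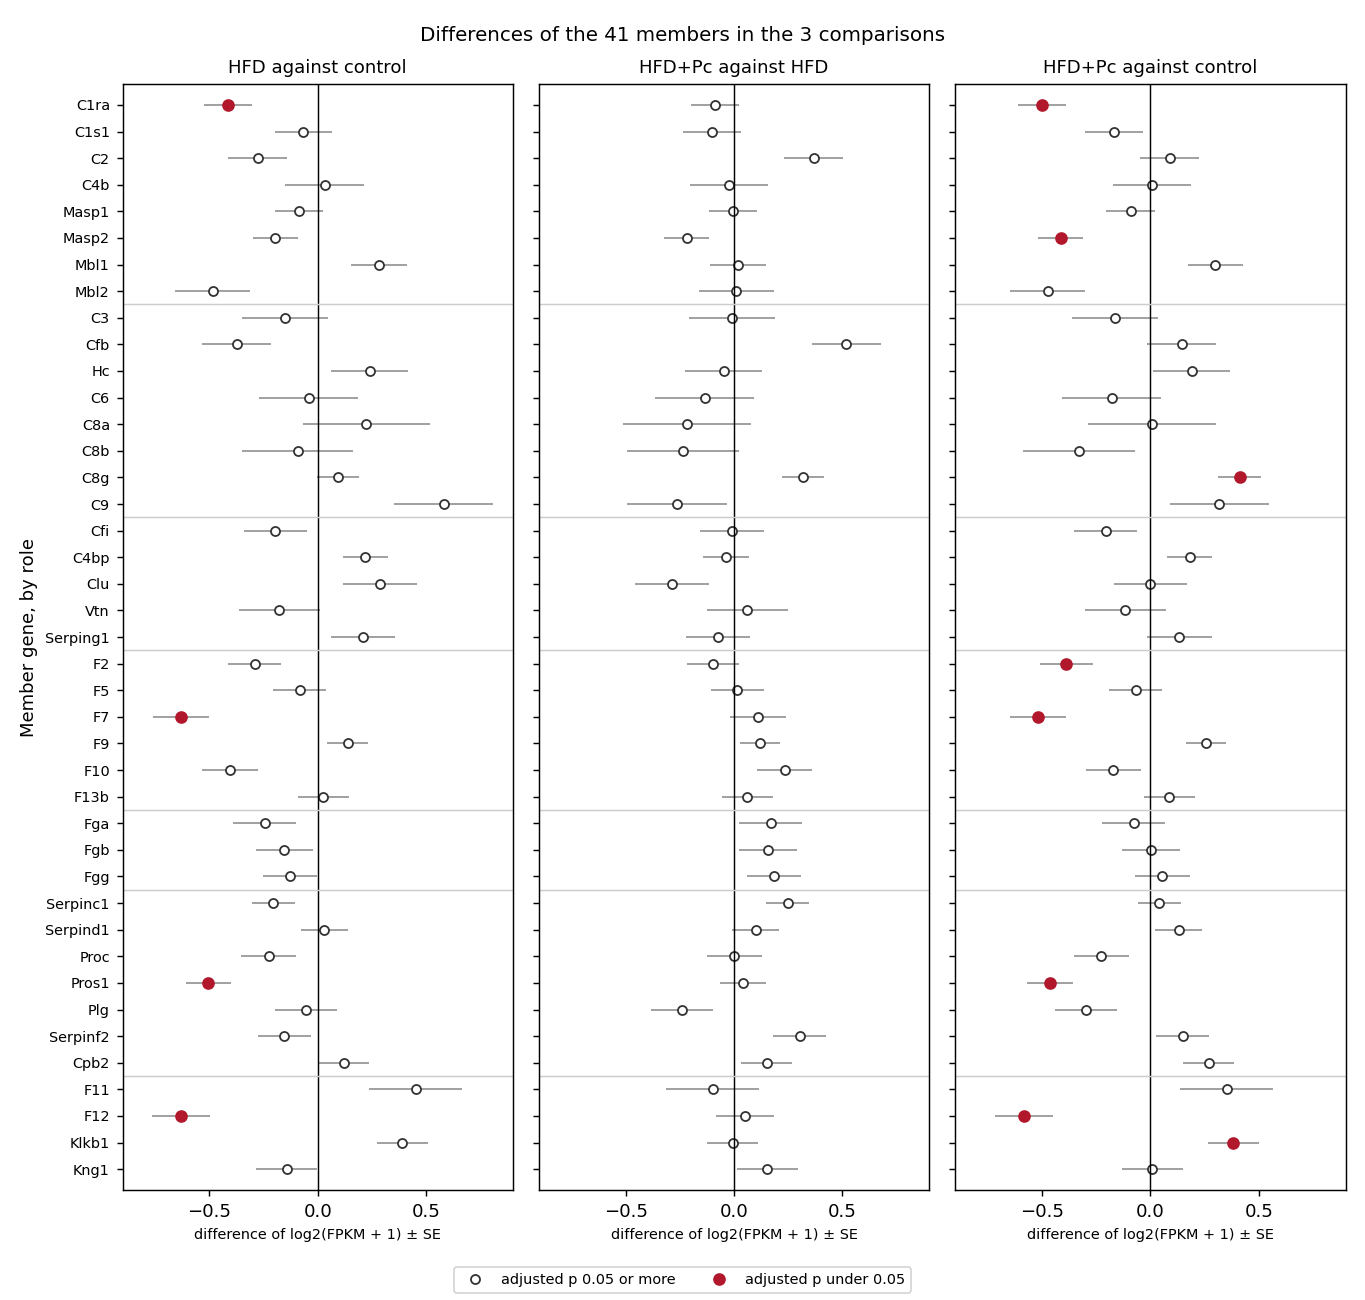
Difference of log2(FPKM + 1) with its standard error (x axis) for each member (y axis, ordered by role) in the 3 comparisons, 1 panel each; filled red points have a limma adjusted p under 0.05. The left panel has 4 filled points, all below 0, the middle panel has 0, and the right panel has 2 above and 6 below 0.

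The initiators of the classical and lectin routes comprise 8 members. C1ra and C1s1 encode the proteases of the C1 complex, C4b and C2 the proteins that C1s cuts, Mbl1 and Mbl2 the mannose-binding lectins, and Masp1 and Masp2 the proteases that travel with them. In HFD against control 1 of the 8 was called lower and 0 higher, beside 5.35% of tested genes lower and 4.61% higher, and in HFD+Pc against control 2 were called lower and 0 higher, beside 11.9% and 11.1%. With so few genes to a role, nothing is read from these shares here or for the roles below.

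C1ra (ENSMUSG00000055172) had 61.4, 65.9 and 62.7 FPKM in HFD+Pc livers, 65.0, 79.5 and 59.1 FPKM in HFD livers and 95.8, 87.5 and 87.1 FPKM in control livers. Every control library lay above every library of the other groups. Its difference was -0.41 ± 0.11 (SE, limma adjusted p = 0.0456) in HFD against control and -0.50 ± 0.11 (limma adjusted p = 0.0127) in HFD+Pc against control, while in HFD+Pc against HFD it was -0.09 ± 0.11 (limma adjusted p = 0.756). The call in HFD against control depended on single libraries. Of the 9 fits that leave out 1 library it passed in 1, the fit without HFD replicate 2, and without HFD+Pc replicate 1, 3 or 4, HFD replicate 1 or 3 or control replicate 1, 2 or 4 the limma adjusted p reached up to 0.132. The call in HFD+Pc against control passed in 9 of 9, with a highest limma adjusted p of 0.0458. C1ra has a near copy, C1rb (97.9% identical over 2432 bases, 0.189 FPKM), so reads that fit both are uncertain.

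The promoter of C1ra is shown because, of the 4 genes called lower in HFD livers, C1ra is the one whose window holds matches to motifs searched, 2 of 4. C1ra lies next to its partner C1s1 on chromosome 6. The window is chr6:124512371-124512670 on the + strand of GRCm38.p6, 300 bases around the RefSeq start of the gene. Capitals mark the interleukin 6 response element CTGGGAA and then the C/EBP motif TTGCNNAA, read on the other strand.
C1ra: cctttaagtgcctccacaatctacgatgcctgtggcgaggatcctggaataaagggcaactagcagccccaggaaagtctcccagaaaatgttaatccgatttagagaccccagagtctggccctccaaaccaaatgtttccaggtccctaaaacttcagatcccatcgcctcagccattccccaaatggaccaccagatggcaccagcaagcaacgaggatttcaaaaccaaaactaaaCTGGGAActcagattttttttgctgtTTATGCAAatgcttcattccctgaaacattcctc

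C1s1, in contrast, averaged 104 ± 4.70 FPKM in HFD+Pc livers, 113 ± 21.5 FPKM in HFD livers and 117 ± 11.3 FPKM in control livers (SD, n = 3), with overlapping groups and a difference of -0.07 ± 0.13 in HFD against control (limma adjusted p = 0.784). The ratio of C1ra to C1s1 FPKM was 0.624, 0.614 and 0.595 in the HFD+Pc libraries, 0.648, 0.578 and 0.588 in the HFD libraries and 0.765, 0.717 and 0.835 in the control libraries. The control ratios lay above all 6 others. Within-library ratios of partner genes were picked after their values had been seen and are given with no test.

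Masp2 (ENSMUSG00000028979), the protease of the lectin route that cuts C4 and C2, had 29.1, 35.5 and 35.1 FPKM in HFD+Pc livers, 35.1, 42.7 and 38.7 FPKM in HFD livers and 46.5, 44.1 and 42.9 FPKM in control livers. All HFD+Pc values lay below all control values. The difference was -0.41 ± 0.10 in HFD+Pc against control (limma adjusted p = 0.0198), -0.20 ± 0.10 in HFD against control (limma adjusted p = 0.25) and -0.22 ± 0.10 in HFD+Pc against HFD (limma adjusted p = 0.343). The call was lost without control replicate 1 or 2, where the limma adjusted p reached 0.0641. Of the exon bases of Masp2, 54.9% overlap Tardbp, an RNA-binding protein gene on the opposite strand. Tardbp averaged 12.5 ± 0.641 FPKM in HFD+Pc livers, 12.2 ± 0.625 FPKM in HFD livers and 7.17 ± 1.62 FPKM in control livers (SD, n = 3), higher in HFD+Pc livers by 0.75 (limma adjusted p = 0.00585). The sources used here do not state whether counting used strand, and without strand reads from Masp2 and Tardbp cannot be told apart.

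The mannose-binding lectins differed in direction from each other without either passing. Mbl2 had 144, 149.9 and 161 FPKM in HFD+Pc livers, 161, 187 and 113 FPKM in HFD livers and 241, 209 and 185 FPKM in control livers, a difference of -0.48 ± 0.17 in HFD against control (limma adjusted p = 0.109). Mbl1 averaged 99.0 ± 7.46 FPKM in HFD+Pc livers, 97.7 ± 7.15 FPKM in HFD livers and 80.9 ± 14.7 FPKM in control livers (SD, n = 3), a difference of 0.28 ± 0.13 in the same comparison (limma adjusted p = 0.187). Mbl2 FPKM was 1.54, 1.39 and 1.68 times that of Mbl1 in the HFD+Pc libraries, 1.63, 1.79 and 1.25 times in the HFD libraries and 2.47, 2.90 and 2.55 times in the control libraries. The control ratios stood above all others, as the plot of partner ratios shows.

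C4b, the member of this role with the highest level, had 222, 323 and 256 FPKM in HFD+Pc livers, 224, 336 and 256 FPKM in HFD livers and 302, 238 and 251 FPKM in control livers, and the 3 groups overlapped. Its differences were 0.03 ± 0.18 in HFD against control, -0.02 ± 0.18 in HFD+Pc against HFD and 0.0072 ± 0.18 in HFD+Pc against control (limma adjusted p = 0.931, 0.964 and 0.984). It is 96.0% identical to C4a, which had 2.07 FPKM. Masp1 averaged 17.5 ± 1.57 FPKM in HFD+Pc livers, 17.7 ± 2.76 FPKM in HFD livers and 18.7 ± 0.457 FPKM in control livers (SD, n = 3). C2 averaged 9.75 ± 0.280 FPKM in HFD+Pc livers, 7.46 ± 1.84 FPKM in HFD livers and 9.13 ± 0.898 FPKM in control livers; its difference of 0.37 ± 0.14 in HFD+Pc against HFD did not pass (limma adjusted p = 0.246).

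**Figure D3:**
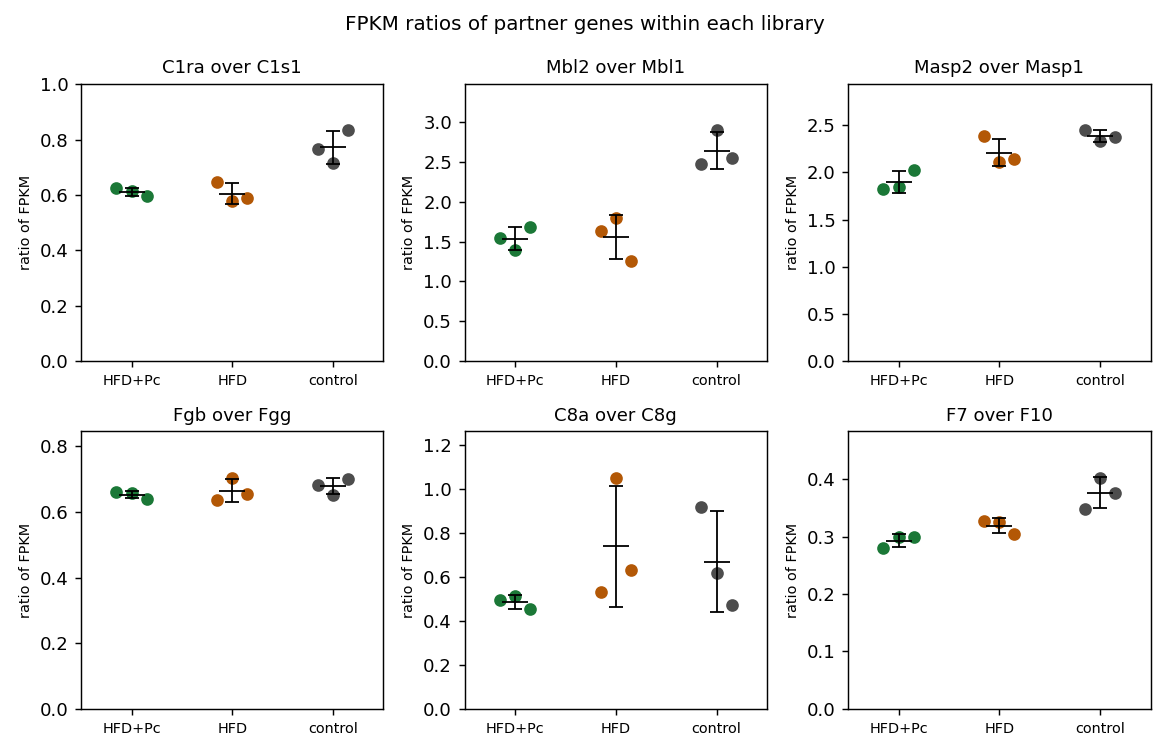
FPKM of 1 gene divided by that of its partner within each library (y axis, from 0) for 6 pairs of members in HFD+Pc, HFD and control livers; points are libraries, and the horizontal mark with its bar is the mean ± SD (n = 3). The control ratios of C1ra over C1s1 and of Mbl2 over Mbl1 lie above all 6 others, while Fgb over Fgg stays between 0.636 and 0.705 in all 9 libraries.

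The 8 members of the C3, alternative and terminal group held 1 call, C8g in HFD+Pc against control, beside 11.1% of tested genes called higher. C8g (ENSMUSG00000015083) encodes the lipocalin-like gamma chain of C8, part of the membrane attack complex. It had 215, 261 and 252 FPKM in HFD+Pc livers, 197, 202 and 184 FPKM in HFD livers and 184, 176 and 185 FPKM in control livers. The HFD+Pc values lay above all 6 others. The difference was 0.41 ± 0.10 in HFD+Pc against control (limma adjusted p = 0.0163), 0.32 ± 0.10 in HFD+Pc against HFD (limma adjusted p = 0.166) and 0.09 ± 0.10 in HFD against control (limma adjusted p = 0.569). Without HFD+Pc replicate 3 or 4 or control replicate 2 the call was lost, with a limma adjusted p of up to 0.0660.

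The alpha and beta chains of C8 had other patterns. C8a averaged 118 ± 14.4 FPKM in HFD+Pc livers, 144 ± 58.5 FPKM in HFD livers and 122 ± 42.3 FPKM in control livers (SD, n = 3), a difference of 0.0083 ± 0.29 in HFD+Pc against control (limma adjusted p = 0.988). C8b averaged 52.5 ± 5.58 FPKM in HFD+Pc livers, 64.5 ± 23.7 FPKM in HFD livers and 67.6 ± 19.0 FPKM in control livers, a difference of -0.33 ± 0.26 in the same comparison (limma adjusted p = 0.381). The ratio of C8a to C8g was 0.494, 0.514 and 0.452 in the HFD+Pc libraries, 0.530, 1.05 and 0.632 in the HFD libraries and 0.918, 0.618 and 0.470 in the control libraries. C8a and C8b are neighbours on chromosome 4 and both were highest within their group in HFD replicate 2 and control replicate 1, and the ratio spread more widely within the HFD and control groups than among the HFD+Pc libraries.

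C3, the protein on which the routes converge, had 1069.5, 1576 and 1147 FPKM in HFD+Pc livers, 1177, 1568 and 1069 FPKM in HFD livers and 1678, 1327 and 1218 FPKM in control livers. The groups overlapped, and the differences were -0.15 ± 0.20 in HFD against control, -0.0098 ± 0.20 in HFD+Pc against HFD and -0.16 ± 0.20 in HFD+Pc against control (limma adjusted p = 0.659, 0.991 and 0.582). C9, which polymerises into the pore, averaged 152 ± 32.8 FPKM in HFD+Pc livers, 186 ± 59.6 FPKM in HFD livers and 121 ± 17.2 FPKM in control livers (SD, n = 3), a difference of 0.58 ± 0.23 in HFD against control that did not pass (limma adjusted p = 0.138). Hc, the mouse C5 gene, averaged 173 ± 18.2 FPKM in HFD+Pc livers, 181 ± 40.9 FPKM in HFD livers and 152 ± 26.5 FPKM in control livers. C6 averaged 58.9 ± 7.43 FPKM in HFD+Pc livers, 67.4 ± 22.6 FPKM in HFD livers and 66.6 ± 4.09 FPKM in control livers, and neither gene passed in any comparison.

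Cfb, factor B of the alternative route, was the lowest member. It had 1.26, 1.5 and 1.07 FPKM in HFD+Pc livers, 0.405, 0.907 and 0.484 FPKM in HFD livers and 1.46, 0.812 and 0.939 FPKM in control livers, and its HFD+Pc and HFD values did not overlap. The difference of 0.52 ± 0.16 in HFD+Pc against HFD did not pass (limma adjusted p = 0.167). At this level the added 1 in log2(FPKM + 1) understates the change. Cfb shares 79.5% and C2 42.8% of their exon bases with Gm20547, a read-through model on the same strand that is listed at 0. How reads in these shared bases were counted is not given, so the levels of Cfb and C2 are uncertain.

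Of the 5 complement regulators 0 passed in any comparison, and by limma 0 had an unadjusted p under 0.05 in each. Of tested genes, 9.97% passed in HFD against control, 0.628% in HFD+Pc against HFD and 23.1% in HFD+Pc against control. At an unadjusted p under 0.05 the shares were 27.8%, 15.6% and 38.2% in that order. Vtn encodes vitronectin, which binds the terminal complex. It had 692, 958 and 853 FPKM in HFD+Pc livers, 751, 985 and 672 FPKM in HFD livers and 1093, 812 and 811 FPKM in control livers, and the groups overlapped. Its differences were -0.18 ± 0.19 in HFD against control, 0.06 ± 0.19 in HFD+Pc against HFD and -0.12 ± 0.19 in HFD+Pc against control (limma adjusted p = 0.575, 0.905 and 0.686). Clu, which encodes clusterin, another protein that binds the terminal complex, averaged 394 ± 65.1 FPKM in HFD+Pc livers, 484 ± 107 FPKM in HFD livers and 392 ± 33.2 FPKM in control livers (SD, n = 3). Serping1, the C1 inhibitor, averaged 349 ± 56.3 FPKM in HFD+Pc livers, 366 ± 51.5 FPKM in HFD livers and 316 ± 32.1 FPKM in control livers. Cfi, the protease that cuts C3b and C4b, averaged 222 ± 17.9 FPKM in HFD+Pc livers, 225 ± 39.2 FPKM in HFD livers and 257 ± 36.2 FPKM in control livers, and its cofactor C4bp averaged 81.0 ± 3.38 FPKM in HFD+Pc livers, 83.6 ± 10.8 FPKM in HFD livers and 71.4 ± 4.86 FPKM in control livers. Over the 5 regulators, differences ran from -0.20 to 0.29 in HFD against control and from -0.21 to 0.18 in HFD+Pc against control.

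Among the 6 coagulation proteases and cofactors, 1 was called lower in HFD against control (beside 5.35% of tested genes) and 2 in HFD+Pc against control (beside 11.9%), with 0 higher (beside 4.61% and 11.1%). F7 (ENSMUSG00000031443) encodes factor VII, the vitamin K-dependent protease that starts coagulation with tissue factor. It had 32.4, 40.6 and 40.6 FPKM in HFD+Pc livers, 33.2, 40.5 and 31.3 FPKM in HFD livers and 58.1, 57.1 and 48.4 FPKM in control livers. Every value on the high-fat diet, with or without the bacterium, lay below the lowest control value. The difference was -0.63 ± 0.13 in HFD against control (limma adjusted p = 0.0212), -0.52 ± 0.13 in HFD+Pc against control (limma adjusted p = 0.0203) and 0.11 ± 0.13 in HFD+Pc against HFD (limma adjusted p = 0.728). The call in HFD against control was lost without HFD replicate 1 or 3 or control replicate 1 or 2 (limma adjusted p up to 0.0703), and that in HFD+Pc against control without HFD+Pc replicate 1 or control replicate 1 or 2 (up to 0.0661).

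The F7 promoter is printed beside that of F12 because these are the members with the largest differences in HFD against control. The windows are chr8:13025784-13026083 on the + strand for F7 and chr13:55426755-55427054 on the - strand for F12, both of GRCm38.p6 and each read in the direction of its gene. Neither holds a match to the 4 motifs searched, so both stand in lower case throughout, which says only that these letters are not in these windows.
F7: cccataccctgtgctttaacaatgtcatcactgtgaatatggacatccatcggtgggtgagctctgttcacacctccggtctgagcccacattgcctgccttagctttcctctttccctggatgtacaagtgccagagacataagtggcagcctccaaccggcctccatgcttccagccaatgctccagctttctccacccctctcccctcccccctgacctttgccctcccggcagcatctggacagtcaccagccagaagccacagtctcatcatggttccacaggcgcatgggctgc
F12: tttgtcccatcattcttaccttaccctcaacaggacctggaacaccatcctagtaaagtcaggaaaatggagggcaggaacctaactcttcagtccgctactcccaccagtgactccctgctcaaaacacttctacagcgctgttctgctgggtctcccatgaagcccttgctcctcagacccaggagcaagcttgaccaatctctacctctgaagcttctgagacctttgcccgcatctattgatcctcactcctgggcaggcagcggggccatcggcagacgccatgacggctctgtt

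F2 (ENSMUSG00000027249) encodes prothrombin and had the highest level of this role. It had 233, 278 and 279 FPKM in HFD+Pc livers, 273, 324 and 249.7 FPKM in HFD livers and 363, 337 and 331 FPKM in control livers, with all HFD+Pc values below all control values. The difference was -0.39 ± 0.12 in HFD+Pc against control (limma adjusted p = 0.0469), -0.29 ± 0.12 in HFD against control (limma adjusted p = 0.158) and -0.10 ± 0.12 in HFD+Pc against HFD (limma adjusted p = 0.752). The call was lost without HFD+Pc replicate 1, 3 or 4, HFD replicate 1 or control replicate 1, 2 or 4, with a limma adjusted p of up to 0.129.

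F10, factor X, lies next to F7 on chromosome 8. F10 had 116, 135 and 135 FPKM in HFD+Pc livers, 101, 124 and 103 FPKM in HFD livers and 167, 142 and 128 FPKM in control livers. Its HFD values lay below its control values, but its difference of -0.40 ± 0.13 did not pass (limma adjusted p = 0.0741), and in HFD+Pc against control it was -0.17 ± 0.13 (limma adjusted p = 0.355). The ratio of F7 to F10 was 0.280, 0.300 and 0.300 in the HFD+Pc libraries, 0.328, 0.325 and 0.304 in the HFD libraries and 0.349, 0.403 and 0.377 in the control libraries. F9, factor IX, had 112, 115 and 102 FPKM in HFD+Pc livers, 93.6, 111 and 97.7 FPKM in HFD livers and 93.9, 88.7 and 91.6 FPKM in control livers, a difference of 0.26 ± 0.09 in HFD+Pc against control (limma adjusted p = 0.0724). Factor V (F5) averaged 99.5 ± 6.21 FPKM in HFD+Pc livers, 98.8 ± 13.7 FPKM in HFD livers and 105 ± 11.2 FPKM in control livers (SD, n = 3). The factor XIII B chain (F13b) averaged 94.0 ± 11.8 FPKM in HFD+Pc livers, 89.9 ± 9.22 FPKM in HFD livers and 88.1 ± 6.02 FPKM in control livers. Neither F5 nor F13b passed in any comparison.

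The 6 vitamin K-dependent members, F2, F7, F9, F10, Proc and Pros1, differed among themselves. Differences in HFD against control were -0.63 for F7, -0.50 for Pros1, -0.40 for F10, -0.29 for F2, -0.23 for Proc and 0.14 for F9, of which F7 and Pros1 passed.

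**Figure D4:**
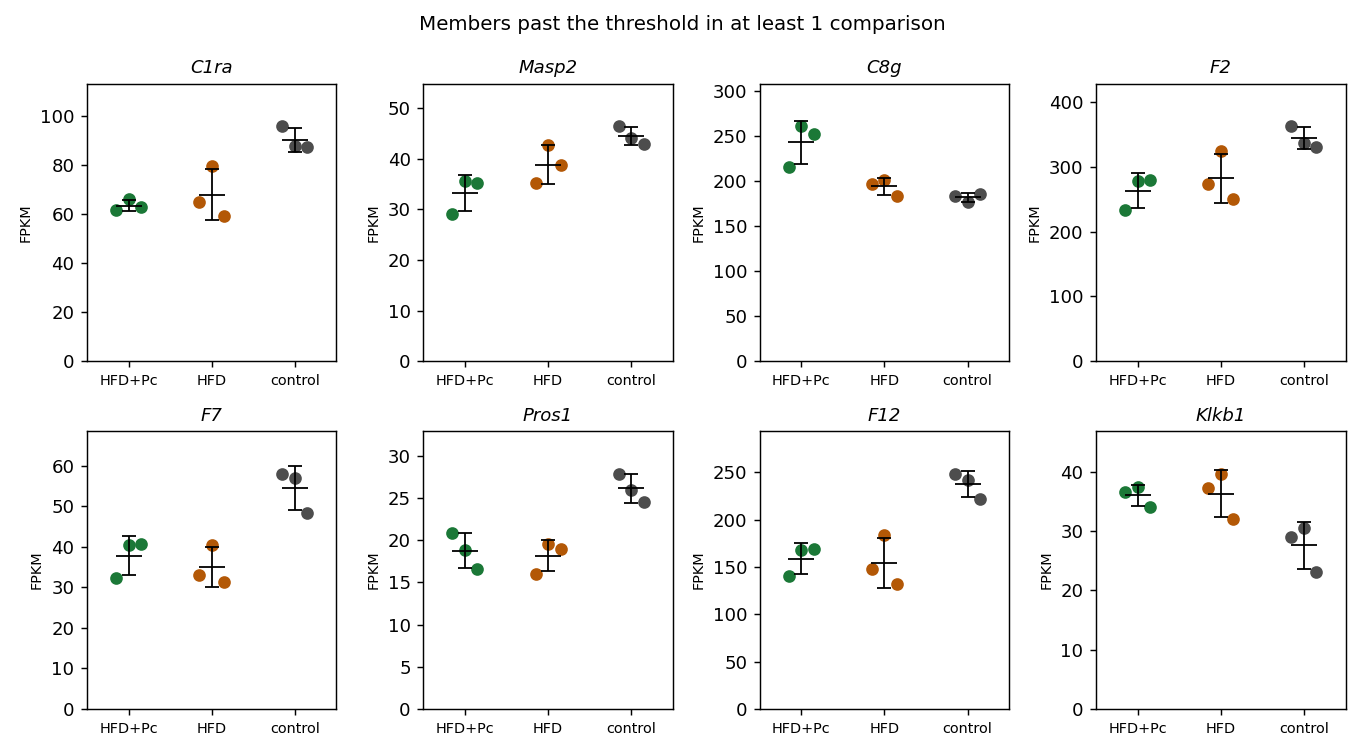
FPKM (y axis, from 0) of the 8 members past the threshold in at least 1 comparison, in HFD+Pc, HFD and control livers; points are libraries, and the horizontal mark with its bar is the mean ± SD (n = 3). For C1ra, F7, F12 and Pros1 the 3 control points lie above all 6 others, and for C8g the 3 HFD+Pc points do.

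The fibrinogen chains, Fga, Fgb and Fgg, held 0 calls in each of the 3 comparisons. Of tested genes, 9.97% were called in HFD against control, 0.628% in HFD+Pc against HFD and 23.1% in HFD+Pc against control. Fgg, the gamma chain and the highest of all 41 members, had 1405, 1539 and 1522 FPKM in HFD+Pc livers, 1175, 1262 and 1518 FPKM in HFD livers and 1526, 1305 and 1469 FPKM in control livers. HFD replicates 1 and 2 were the lowest and the groups overlapped. The differences were -0.13 ± 0.12 in HFD against control, 0.18 ± 0.12 in HFD+Pc against HFD and 0.06 ± 0.12 in HFD+Pc against control (limma adjusted p = 0.545, 0.528 and 0.774). Fga, the alpha chain, averaged 1329 ± 83.3 FPKM in HFD+Pc livers, 1189.5 ± 169.5 FPKM in HFD livers and 1409 ± 194 FPKM in control livers (SD, n = 3), and Fgb, the beta chain, averaged 972 ± 41.6 FPKM in HFD+Pc livers, 877 ± 124 FPKM in HFD livers and 974 ± 107 FPKM in control livers. Over the 3 chains the differences ran from -0.24 to -0.13 in HFD against control and from 0.16 to 0.18 in HFD+Pc against HFD, and none passed.

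Fgb kept a nearly constant proportion to Fgg, and Fga a looser one. Fgb was 0.662, 0.658 and 0.640 of Fgg in the HFD+Pc libraries, 0.636, 0.705 and 0.655 in the HFD libraries and 0.683, 0.652 and 0.700 in the control libraries. Fga was 0.883, 0.913 and 0.882 of Fgg in the HFD+Pc libraries, 0.848, 0.999 and 0.865 in the HFD libraries and 0.940, 0.921 and 1.08 in the control libraries. These genes are neighbours on chromosome 3. Their promoters are printed because the chains form 1 protein, of which Fgb and Fgg kept a nearly constant ratio over the libraries. They are chr3:83025903-83026202 on the + strand for Fga, chr3:83049814-83050113 on the - strand for Fgb and chr3:83007474-83007773 on the + strand for Fgg, of GRCm38.p6. Capitals mark a C/EBP match in Fga, an interleukin 6 response element and then a C/EBP match in Fgb, and an interleukin 6 response element in Fgg.
Fga: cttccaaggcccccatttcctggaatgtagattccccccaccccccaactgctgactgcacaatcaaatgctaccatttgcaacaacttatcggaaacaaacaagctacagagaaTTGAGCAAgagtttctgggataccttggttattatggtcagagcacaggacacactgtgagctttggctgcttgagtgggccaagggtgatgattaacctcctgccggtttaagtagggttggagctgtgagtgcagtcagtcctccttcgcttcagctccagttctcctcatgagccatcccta
Fgb: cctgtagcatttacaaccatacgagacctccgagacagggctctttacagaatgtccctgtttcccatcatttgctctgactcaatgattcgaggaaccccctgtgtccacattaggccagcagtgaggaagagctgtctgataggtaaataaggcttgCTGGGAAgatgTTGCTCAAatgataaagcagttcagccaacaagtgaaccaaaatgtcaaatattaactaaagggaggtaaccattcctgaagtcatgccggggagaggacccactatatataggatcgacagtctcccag
Fgg: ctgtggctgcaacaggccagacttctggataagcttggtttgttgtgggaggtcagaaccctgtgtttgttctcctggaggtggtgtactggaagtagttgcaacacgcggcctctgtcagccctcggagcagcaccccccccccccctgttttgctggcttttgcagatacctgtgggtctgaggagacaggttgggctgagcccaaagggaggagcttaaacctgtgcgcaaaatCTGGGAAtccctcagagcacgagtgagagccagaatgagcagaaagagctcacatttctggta

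Of the 7 anticoagulants and members of fibrinolysis, Pros1 alone passed, in both comparisons with control (beside 5.35% of tested genes lower in HFD and 11.9% lower in HFD+Pc livers). It encodes protein S, the cofactor of activated protein C. Pros1 (ENSMUSG00000022912) had 20.8, 18.8 and 16.6 FPKM in HFD+Pc livers, 16.0, 19.5 and 19.0 FPKM in HFD livers and 27.9, 26.0 and 24.5 FPKM in control livers, so that every control value exceeded the 6 others. The difference was -0.50 ± 0.10 in HFD against control (limma adjusted p = 0.0220), -0.46 ± 0.10 in HFD+Pc against control (limma adjusted p = 0.0140) and 0.04 ± 0.10 in HFD+Pc against HFD (limma adjusted p = 0.882). The call in HFD against control was lost without HFD replicate 1 or control replicate 1 or 2 (limma adjusted p up to 0.0721), and that in HFD+Pc against control without control replicate 1 (0.0502). Pros1 is also made by endothelial cells, and the 10 sinusoidal endothelial markers summed to 84.5 to 91.2 FPKM in HFD+Pc livers, 74.8 to 93.2 FPKM in HFD livers and 101.9 to 117 FPKM in control livers. Their part in the result was not tested.

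Proc, protein C itself, averaged 133 ± 13.6 FPKM in HFD+Pc livers, 134 ± 18.0 FPKM in HFD livers and 156 ± 13.4 FPKM in control livers (SD, n = 3) and did not pass. Plg, plasminogen, had 354, 434 and 397 FPKM in HFD+Pc livers, 412, 575 and 426 FPKM in HFD livers and 523, 471 and 460.4 FPKM in control livers. All HFD+Pc values lay below all control values, and the HFD values overlapped both groups. Its differences were -0.06 ± 0.14 in HFD against control, -0.24 ± 0.14 in HFD+Pc against HFD and -0.30 ± 0.14 in HFD+Pc against control (limma adjusted p = 0.836, 0.454 and 0.159). The inhibitor of thrombin Serpinc1 (antithrombin) had 203, 234 and 241 FPKM in HFD+Pc livers, 181, 197 and 192 FPKM in HFD livers and 236, 209 and 213 FPKM in control livers, a difference of 0.25 ± 0.10 in HFD+Pc against HFD (limma adjusted p = 0.273). The inhibitor of plasmin Serpinf2 (alpha-2-antiplasmin) averaged 354 ± 32.8 FPKM in HFD+Pc livers, 288 ± 42.4 FPKM in HFD livers and 318 ± 10.2 FPKM in control livers (SD, n = 3), a difference of 0.30 ± 0.12 in the same comparison (limma adjusted p = 0.272). Neither passed. Serpinc1 shares 34.4% of its exon bases with Zbtb37 on the opposite strand, which had 0.653 FPKM. Serpind1 (heparin cofactor II) averaged 248 ± 11.5 FPKM in HFD+Pc livers, 233 ± 30.7 FPKM in HFD livers and 226 ± 8.32 FPKM in control livers (SD, n = 3). Cpb2, the carboxypeptidase that slows fibrinolysis, averaged 226 ± 17.0 FPKM in HFD+Pc livers, 205 ± 28.2 FPKM in HFD livers and 187 ± 8.73 FPKM in control livers, a difference of 0.27 ± 0.12 in HFD+Pc against control (limma adjusted p = 0.122).

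The contact system, in which factor XII and plasma kallikrein activate each other on surfaces and kallikrein cuts kininogen, held calls in both directions, 1 of 4 lower in HFD against control (beside 5.35% of tested genes) and 1 lower and 1 higher in HFD+Pc against control (beside 11.9% and 11.1%). F12 (ENSMUSG00000021492) had 140.1, 168 and 169 FPKM in HFD+Pc livers, 148, 184 and 132 FPKM in HFD livers and 249, 242 and 222 FPKM in control livers. All 6 values on the high-fat diet lay below the lowest control value. The difference was -0.63 ± 0.13 in HFD against control (limma adjusted p = 0.0230), -0.58 ± 0.13 in HFD+Pc against control (limma adjusted p = 0.0145) and 0.05 ± 0.13 in HFD+Pc against HFD (limma adjusted p = 0.893). The call in HFD against control was lost without HFD replicate 1 or 3 or control replicate 1 or 2 (limma adjusted p up to 0.0720), while that in HFD+Pc against control passed in 9 of 9 such fits, with a highest limma adjusted p of 0.0485.

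Klkb1 (ENSMUSG00000109764), which encodes prekallikrein, had 36.5, 37.4 and 34.0 FPKM in HFD+Pc livers, 37.2, 39.6 and 31.9 FPKM in HFD livers and 28.9, 30.6 and 23.1 FPKM in control livers. Here the control values were the 3 lowest. The difference was 0.38 ± 0.12 in HFD+Pc against control (limma adjusted p = 0.0438), 0.39 ± 0.12 in HFD against control (limma adjusted p = 0.0664) and -0.0068 ± 0.12 in HFD+Pc against HFD (limma adjusted p = 0.988). It passed in 3 of the 9 fits without 1 library and was lost without HFD+Pc replicate 1, 3 or 4, HFD replicate 1 or control replicate 1 or 4, with a limma adjusted p of up to 0.127. Klkb1 shares 43.2% of its exon bases with the same-strand model Gm45753, which had 0.009 FPKM, so its level is uncertain in the same way as that of Cfb.

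Its promoter is shown as that of the contact gene with the opposite direction to F12. The window is chr8:45294786-45295085 on the - strand of GRCm38.p6, and capitals mark a C/EBP match and then the TATA box TATAAA, both on the other strand.
Klkb1: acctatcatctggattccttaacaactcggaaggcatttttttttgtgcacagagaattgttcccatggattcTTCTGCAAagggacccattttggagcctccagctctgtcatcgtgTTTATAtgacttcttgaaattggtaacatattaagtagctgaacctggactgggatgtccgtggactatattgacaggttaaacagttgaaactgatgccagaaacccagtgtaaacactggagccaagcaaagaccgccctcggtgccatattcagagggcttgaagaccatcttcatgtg

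F11, factor XI, is the neighbour of Klkb1 on chromosome 8. It averaged 23.6 ± 1.55 FPKM in HFD+Pc livers, 26.5 ± 10.3 FPKM in HFD livers and 18.3 ± 1.93 FPKM in control livers (SD, n = 3), a difference of 0.35 ± 0.21 in HFD+Pc against control that did not pass (limma adjusted p = 0.259). Kng1, kininogen, had 550.3, 677 and 641 FPKM in HFD+Pc livers, 491, 642 and 550.5 FPKM in HFD livers and 684, 633 and 539.5 FPKM in control livers, with overlapping groups and differences of -0.14 ± 0.14 in HFD against control, 0.15 ± 0.14 in HFD+Pc against HFD and 0.01 ± 0.14 in HFD+Pc against control (limma adjusted p = 0.540, 0.653 and 0.968). Kng1 and its copy Kng2 (93.7 FPKM) are 91.8% identical over 1345 bases, so their split is uncertain.

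Over the members, the promoter windows could be compared with those of all genes. RefSeq windows matched 31 of the 41 members (33 windows), out of 32851 in all. The C/EBP motif TTGCNNAA, on either strand, was in 11 member windows (33.3%) and in 10.8% of all windows. The same search found the interleukin 6 response element CTGGGAA in 7 (21.2%, against 11.1%), the HNF4 core CAAAGT in 6 (18.2%, against 14.4%) and the TATA box TATAAA in 4 (12.1%, against 13.6%). Members of gene clusters share sequence history, and a match is a description of letters, not a site.

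Of 34 other complement genes 26 passed the filter. In HFD against control 2 rose and 1 fell (11.5%, beside 9.97% of tested genes). In HFD+Pc against control 3 rose and 3 fell (23.1%, beside 23.1%), so both shares are near the background. HFD+Pc against HFD held 0 calls by limma, beside 0.628% of tested genes. At an unadjusted p under 0.05 there were 8 of the 26, beside 15.6%, and 15 lay below 0, beside 47.8%. The median difference there was -0.12, beside 0.0094 over all tested genes. Cfd, which encodes factor D, the protease that cuts factor B, had 5.95, 2.33 and 5.20 FPKM in HFD+Pc livers, 21.8, 9.92 and 5.23 FPKM in HFD livers and 0.116, 0.128 and 0 FPKM in control livers. The difference was 3.42 ± 0.43 in HFD against control (limma adjusted p = 0.00532) and 2.28 ± 0.43 in HFD+Pc against control (limma adjusted p = 0.00767), and neither passed in limma-voom on recovered reads. With control values this low, the fitted size depends on the pseudocount. Cfd passed the filter only through the HFD+Pc and HFD libraries, where it was high, so its calls are no support for a direction. Cfd is an adipocyte gene too. Of the defining adipocyte markers, Adipoq had 1.54, 0 and 0.129 FPKM in HFD livers and was listed at 0 in the 3 HFD+Pc and 3 control libraries. Cidea had 0.308, 0.161 and 0.956 FPKM in HFD+Pc livers, 2.15, 0.784 and 0.320 FPKM in HFD livers and 0.0959, 0 and 0 FPKM in control livers. Plin1 and Lep were above 0 in HFD replicate 1 alone, at 0.164 and 0.0487 FPKM. These markers were thus highest in HFD replicate 1, the library in which Cfd was highest. None of the 4 passed the filter. The list of 6 with Cfd and Car3 summed to 645 to 1020.0 FPKM in HFD+Pc livers, 674.5 to 994.7 FPKM in HFD livers and 157 to 736 FPKM in control livers, nearly all of it Car3, which hepatocytes also express. Their part in the result was not tested.

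The higher calls besides Cfd were Cfhr3 and Cr1l. Cfhr3, of the factor H-related genes, averaged 15.1 ± 1.60 FPKM in HFD+Pc livers, 13.2 ± 1.24 FPKM in HFD livers and 9.92 ± 0.424 FPKM in control livers (SD, n = 3), a difference of 0.56 ± 0.09 in HFD+Pc against control (limma adjusted p = 0.00493) and 0.37 ± 0.09 in HFD against control (limma adjusted p = 0.0392). The second was lost without HFD+Pc replicate 3, HFD replicate 1, 2 or 3 or control replicate 1, 2 or 4 (up to 0.111). Cr1l, which encodes the regulator Crry, rose by 0.46 ± 0.08 in HFD+Pc against control (limma adjusted p = 0.00513). The lower calls were C1qa, C1qc, Colec11 and Fcna, which encode recognition molecules. C1qa, a chain of C1q, averaged 29.8 ± 5.22 FPKM in HFD+Pc livers, 45.4 ± 12.9 FPKM in HFD livers and 68.5 ± 10.6 FPKM in control livers (SD, n = 3), a difference of -1.18 ± 0.22 in HFD+Pc against control (limma adjusted p = 0.00781). C1qc differed by -0.54 ± 0.15 (limma adjusted p = 0.0329), lost without HFD+Pc replicate 3 or 4 or control replicate 1 or 4 (up to 0.113), and the collectin Colec11 by -0.61 ± 0.13 (limma adjusted p = 0.0119) in the same comparison. Ficolin A, Fcna, differed by -0.57 ± 0.12 in HFD against control (limma adjusted p = 0.0210), lost without HFD replicate 3 or control replicate 1, 2 or 4 (up to 0.0639). C1qb, the remaining chain of C1q, differed by -0.36 ± 0.20 in HFD+Pc against control and did not pass (limma adjusted p = 0.226). C1q and ficolin A are macrophage products. The list of 12 Kupffer cell and macrophage markers itself holds C1qa, C1qb and C1qc, and it summed to 314 to 489.7 FPKM in HFD+Pc livers, 431 to 583 FPKM in HFD livers and 436 to 604 FPKM in control livers. Its 8 markers outside the complement list summed to 194.9 to 311 FPKM in HFD+Pc livers, 283 to 371 FPKM in HFD livers and 248 to 358 FPKM in control livers. Of these 8, 6 had a difference below 0 in HFD+Pc against control (beside 48.7% of tested genes), with a median of -0.35. By limma 0 were called (beside 23.1%) and 2 had an unadjusted p under 0.05 (beside 38.2%). In HFD+Pc against HFD all 8 lay below 0 (beside 47.8%), with a median of -0.43. There 0 were called (beside 0.628%) and 3 had an unadjusted p under 0.05 (beside 15.6%). In HFD against control 2 lay below 0 (beside 50.1%), with a median of 0.11 and 1 called higher (beside 4.61%). Their part in these results was not tested.

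Of 38 other coagulation and fibrinolysis genes 24 passed the filter. In HFD against control 2 rose and 0 fell (8.33%, beside 9.97% of tested genes), and in HFD+Pc against control 1 rose and 1 fell (8.33%, below the 23.1% of tested genes). In HFD+Pc against HFD 0 passed by limma, beside 0.628% of tested genes, and 3 of the 24 had an unadjusted p under 0.05, beside 15.6%. Tfpi2, an inhibitor of serine proteases such as plasmin, had 49.9, 54.6 and 54.6 FPKM in HFD+Pc livers, 49.3, 45.8 and 68.5 FPKM in HFD livers and 28.9, 22.8 and 27.8 FPKM in control livers. All 6 values on the high-fat diet exceeded every control value. The difference was 0.999 ± 0.15 in HFD against control (limma adjusted p = 0.00773) and 0.98 ± 0.15 in HFD+Pc against control (limma adjusted p = 0.00355), and both passed whichever library was left out. Anxa2, a cell-surface receptor of plasminogen and its activator, rose by 0.60 ± 0.11 in HFD against control (limma adjusted p = 0.0138). Habp2, a plasma protease, fell by 0.47 in HFD+Pc against control (limma adjusted p = 0.0413), lost without HFD+Pc replicate 1, 3 or 4 or control replicate 1, 2 or 4 (up to 0.127).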

How the data were processed

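Liver RNA was isolated with Trizol, per the labels' protocols. The submitters' processing notes name HISAT2 2.0.5 and the build GRCm39. The deposited values are FPKM, per the file headers, and the counting tool, annotation and use of strand are not given in the sources used here. Of 53700 Ensembl identifiers 52093 were named. FPKM values were tested as log2(FPKM + 1) with limma 3.58.1 (R 4.3.3; a linear model per gene with a robust, trended empirical Bayes step), on genes of at least 1 FPKM in at least 3 libraries, with 9 libraries and 3 group means in 1 model and Benjamini-Hochberg adjustment at 0.05. Fold changes are on that scale, which understates changes of low genes.

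Reads recovered from FPKM and exon lengths of GENCODE M21 were whole for 25356 of 26278 genes above 0 (96.5%). Whole meant within 0.02 or, for high counts, within a small share of the count, a rule that the most abundant genes cannot fail. These reads served limma-voom as an alternative added after the data were seen. Copies were searched with BLAST 2.17.0+ (at least 90% over 300 bases). Promoter windows came from RefSeq (GRCm38.p6). The test was checked on simulated data with independent genes and with planted changes larger than those of most members, so the check does not cover differences of the size seen here. Members, lists and alternatives were chosen with earlier results of these data known. Full values were given for members that passed in any comparison and the highest member of each role, and other pathway genes were named where they passed. Some listed items are not reported here. Alternatives were another pseudocount (0.1), other filters, scalings and samples, a replicate block, and fits without 1 library.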

Additional observations from a re-analysis of the deposited data

How the results depend on the processing

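The higher calls among members in HFD against control numbered 1 (Klkb1) in limma-voom on recovered reads and 0 in the reported fit. The lower calls in that comparison numbered 0 with no filter and 0 with the replicate block, against 4 reported, and 0 to 5 when 1 library was left out. In HFD+Pc against control the higher calls numbered 1 with a filter of 0.1 FPKM, 1 with no filter and 1 with the replicate block, against 2 reported, and 0 to 3 with 1 library left out. The lower calls numbered 3 with no filter and 0 with the replicate block, against 6, and 2 to 7 with 1 library left out. HFD+Pc against HFD gave 0 under every alternative run. The cause was not tested, except that no filter adds genes to the adjustment and leaving out a library reduces the samples.

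Over all tested genes, HFD against control gave 507 higher and 588 lower calls, against 333 and 392 with a filter of 0.1 FPKM, 102 and 107 with no filter, 298 and 361 with only both groups compared in the model, 100 and 132 with the replicate block, and 161 to 518 higher and 171 to 608 lower with 1 library left out. HFD+Pc against HFD gave 20 and 49, against 9 and 18, 2 and 1, 6 and 16, and 1 and 2 under the same settings in that order, 32 and 75 with quantile normalization, 42 and 67 in limma-voom, and 1 to 39 higher and 3 to 84 lower with 1 library left out. HFD+Pc against control gave 1225 and 1313, against 636 and 747 with no filter, 450 and 608 with the replicate block, and 600 to 1265 higher and 796 to 1379 lower with 1 library left out.

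Over the named genes and these settings, HFD against control gave 266 results with the same direction and side of the threshold, 50 that lost the threshold, 1 that gained it and 6 of the other sign. HFD+Pc against control gave 362, 80, 0 and 17 in that order, and HFD+Pc against HFD gave 217, 0, 0 and 21. No sign changed among differences that passed. In HFD+Pc against HFD, F12 was -0.03, C3 0.0067 and Vtn -0.06 with quantile normalization, and with the replicate block Klkb1 was 0.11, C4b 0.03 and C3 0.10. With 1 library left out, C1ra ran from -0.18 to 0.03, F2 from -0.18 to 0.0068, Pros1 from -0.04 to 0.12, F12 from -0.06 to 0.18, Klkb1 from -0.09 to 0.06, C4b from -0.17 to 0.14, C3 from -0.18 to 0.15 and Vtn from -0.06 to 0.22. In HFD against control, C4b was -0.03 with the replicate block and ran from -0.13 to 0.16 with 1 library left out, and Plg from -0.21 to 0.03. In HFD+Pc against control, C4b was -0.0047 with median-ratio scaling, -0.06 with quantile normalization, -0.0004 with the replicate block and -0.0031 in limma-voom. Kng1 was -0.0020, -0.05 and -0.0011 with the first, second and last of these, and Fgg -0.03 with the replicate block. With 1 library left out, C4b ran from -0.14 to 0.13, Vtn from -0.22 to 0.03, Fgg from -0.0095 to 0.10 and Kng1 from -0.09 to 0.10.

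Same-numbered libraries did not deviate together (correlations of -0.119 to 0.053 over 6 pairs). The labels do not say whether a replicate number pairs libraries, and so few correlations cannot decide it. The replicate block moved the calls among members to 0 in HFD against control and to 1 (Klkb1) in HFD+Pc against control. With 3 libraries a group and a median standard error over members of 0.13 on the log2 scale, precision differed from gene to gene, and a difference that did not pass is not shown to be absent.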

Other observations

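Regulators of plasma protein genes in hepatocytes were counted beside the members, and those that passed are named after their values were seen. Of 21 listed and tested, 0 passed in HFD against control by limma, beside 9.97% of tested genes. At an unadjusted p under 0.05 there were 4, beside 27.8%. In HFD+Pc against HFD 0 passed, beside 0.628%, and 6 had an unadjusted p under 0.05, beside 15.6%. In HFD+Pc against control 1 was higher and 4 were lower (23.8%, beside 23.1% of tested genes), so the share called is near the background. At an unadjusted p under 0.05 there were 12 of the 21, beside 38.2%, and 15 lay below 0, beside 48.7%. The median difference there was -0.20, beside 0.0083 over all tested genes. Cebpb, a transcription factor of the acute phase, averaged 29.9 ± 7.01 FPKM in HFD+Pc livers, 44.0 ± 8.45 FPKM in HFD livers and 67.3 ± 10.7 FPKM in control livers (SD, n = 3), a difference of -1.15 ± 0.20 in HFD+Pc against control (limma adjusted p = 0.00568). The nuclear receptor Hnf4a averaged 81.6 ± 3.73 FPKM in HFD+Pc livers, 99.4 ± 11.8 FPKM in HFD livers and 115 ± 10.4 FPKM in control livers, a difference of -0.48 ± 0.11 (limma adjusted p = 0.0135). Both calls passed whichever library was left out. The bile acid receptor Nr1h4 differed by -0.47 ± 0.12 (limma adjusted p = 0.0224) and the NF-kB subunit Rela by -0.24 ± 0.07 (limma adjusted p = 0.0407), while the nuclear receptor Nr5a2 was higher by 0.36 ± 0.11 (limma adjusted p = 0.0438). Nr1h4 was lost without HFD+Pc replicate 3 or 4 or control replicate 1 or 2 (up to 0.0760), Rela without HFD+Pc replicate 3 or 4, HFD replicate 1 or 2 or control replicate 2 or 4 (up to 0.133) and Nr5a2 without HFD+Pc replicate 1, 3 or 4, HFD replicate 1, 2 or 3 or control replicate 1 or 4 (up to 0.145). No relation between these genes and the members was tested.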
